A study of Mus musculus with 8 samples.

Results

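The cytosolic ribosomal protein genes were taken as the protein-coding genes whose symbols are Rpl or Rps followed by a number, with the usual letter endings, together with Rpsa, Rplp0, Rplp1 and Rplp2. The rule found 83 genes of the 55487 in each table, of which 21936 are protein-coding. Of these 83, 51 belong to the large subunit, including the 3 P stalk genes, and 32 to the small subunit. The rule used names alone and no measured value. Another 6 genes with a matching symbol were left out because they are annotated as pseudogenes.

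Regulatory T cells (Tregs, the CD4 T cells marked by the transcription factor Foxp3, which hold other immune cells in check) were sorted for GFP from spleens of C57BL/6 mice, and RNA was sequenced from SMART-Seq v4 libraries, which amplify full-length cDNA from small samples. There were 8 libraries in 4 groups of 2: Tregs labelled SRC-3KO and control Tregs, each from mice with no tumor and from tumor-bearing mice. SRC-3, the product of Ncoa3, is a coactivator of nuclear receptors, and the series asks how the transcriptome of Tregs without it differs. In mice with no tumor, both SRC-3KO libraries carry the word Tam1 in their names, control replicate 1 is named wild type and has a source label without GFP, and control replicate 2 is named for Foxp3-Cre. In tumor-bearing mice both control libraries are named for Foxp3-Cre, and the SRC-3KO libraries carry no further allele or agent in their names. The sources used here do not give the age of the mice, the tumor, the cells in which SRC-3 was deleted or the meaning of Tam1. The labels do not say that the 2 libraries of a group came from separate animals. The p-values thus measure only the spread between these libraries, which may be technical. With no tumor, the spread of the controls also holds their difference in named genotype and source label, which cannot be told apart from it.

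A ribosome is built from ribosomal RNA and about one copy each of a fixed set of proteins, in a small subunit that reads the messenger RNA and a large subunit that joins amino acids. The messenger RNAs for these proteins are among the most abundant in dividing cells, and most begin with a run of pyrimidines at the 5′ end, the TOP element, through which the kinase mTOR sets their translation together. In T cells, ribosome production rises when a resting cell is activated.

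The start of the transcript is shown first because the TOP element is the feature that most of these genes share. RefSeq start regions (GRCm38.p6) matched 63 of the 83 members by symbol, and the other 20 were not found in that table. Runs of pyrimidines (C or T) were counted from their first C, leaving out any T before it. A run of at least 6 bases so counted had to overlap the 20 bases on either side of the annotated start. It was present in 42 of the 63, or 66.7%, against 38.8% of the 27025 genes in the table. Each line below is the 30 bases around a start, 5′ to 3′ on the strand of the gene. The pyrimidine run is in capitals from its first C, so a T before it is in lower case. Rps6, Rps10, Rps18, Rpl15, Rpl35a, Rpl38, Rplp2 and Rpl22l1 are shown as members with the whole run inside the window, and Rpl3l and Rpl10l, which had no such run and were at or near 0 in every library, as contrasts.
Rps6 (chr4:86857353-86857382, minus strand): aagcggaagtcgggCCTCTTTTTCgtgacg
Rps10 (chr17:27635230-27635259, minus strand): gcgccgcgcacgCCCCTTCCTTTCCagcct
Rps18 (chr17:33955651-33955680, minus strand): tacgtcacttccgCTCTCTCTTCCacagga
Rpl15 (chr14:18270972-18271001, minus strand): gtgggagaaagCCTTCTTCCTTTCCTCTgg
Rpl35a (chr16:33056467-33056496, plus strand): gcggggcttgCCTTCCTCTTTCCgccatct
Rpl38 (chr11:114668565-114668594, plus strand): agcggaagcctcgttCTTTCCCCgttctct
Rplp2 (chr7:141447636-141447665, plus strand): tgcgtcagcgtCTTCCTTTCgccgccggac
Rpl22l1 (chr3:28805493-28805522, plus strand): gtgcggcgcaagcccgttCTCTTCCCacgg
Rpl3l (chr17:24727811-24727840, plus strand): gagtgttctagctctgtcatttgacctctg
Rpl10l (chr12:66284387-66284416, minus strand): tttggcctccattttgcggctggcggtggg

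The printed runs are 8 to 17 bases long and begin between 5 bases before the annotated start and position 4, where the start itself is position 1. Over the 300 bases from 250 before to 50 after the start, and counting both strands, CCGGAAG (the core that ETS factors bind) was present in 41.3% of the 63 members against 9.93% of all genes. CACGTG (the E-box read by Myc and Max) was present in 9.52% against 8.09%, and TATAAA in 11.1% against 15.7%. These are matches of letters and say nothing of binding. Members with and without the pyrimidine run had like median log2 fold changes, defined below, of 0.48 and 0.50 with no tumor and of -0.36 and -0.34 in tumor-bearing mice. With no tumor, 10 of 42 members with the run were below 0 (range -2.04 for Rps10 to 3.49 for Rpl39l) and 0 of 19 without it (0.15 to 0.86). The sign there depended on control replicate 1. Over all 81 tested members, 12 were below 0 with that library in the fit and 74 without it. Whether the run goes with the sign was not tested.

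The 4 libraries from mice with no tumor were read as counts, with totals of 27452922 and 31075452 (SRC-3KO) and 25251597 and 24159217 (control), and are given as CPM (counts scaled to the library's total). The 4 tumor libraries were read as FPKM (fragments scaled to transcript length and library size), with unknown depth. No library is in both tables, so levels were not compared across tumor states. Ncoa3, the targeted gene, measured 39.8 and 24.5 CPM in SRC-3KO libraries against 131 and 58.7 CPM in controls with no tumor. Ncoa3 had a log2 fold change of -1.48 there and was not called (adjusted p = 0.91 by edgeR's quasi-likelihood test). In the tumor table it stood at 47.5 and 27.7 FPKM in the libraries labelled SRC-3KO and 37.7 and 45.4 FPKM in the controls, so there the library labelled SRC-3KO replicate 1 was the highest of the 4. SRC-3KO is used for tumor libraries below as a label only. Foxp3 was present in all 8 libraries.

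Single libraries stood apart in each table. With no tumor, control replicate 1 had a Foxp3 level of 230 CPM against 9.33 to 22.3 CPM in the other 3 libraries, and 1320 CPM of Nkg7, a cytotoxic granule gene, against 103 to 533 CPM. Its 6 Treg markers did not move together: Ctla4 (63.9 CPM against 253 to 291), Ikzf2 (40.7 against 169 to 226) and Il2ra (1050 against 1380 to 1830) were lowest there, while Cd4 (91.5 against 42.0 to 66.8) and Cd3e (1600 against 631 to 919) were highest. Their sum of 3070 CPM, to which Cd3e gave the most, lay inside the range of the other 3, 2560 to 3320 CPM. Of the other 4 markers of CD8 T and NK cells, Cd8b1 was lowest in that library, at 7.09 CPM against 18.4 to 24.7, and the other 3 were at 0 to 1.74 CPM. Control replicate 2 with no tumor held 171 CPM of 5 neutrophil markers, nearly all S100a8 and S100a9, against 0.0364 to 1.42 CPM in the other 3. The 8 B and plasma cell markers summed to 102 CPM in control replicate 1 and 1630 CPM in control replicate 2, on either side of the 979 and 462 CPM of SRC-3KO replicates 1 and 2, as did the ribosomal share given below. In tumor-bearing mice, control replicate 2 held 1560 FPKM of 6 monocyte and macrophage markers and 3480 FPKM of 5 neutrophil markers, against 12.1 to 25.8 and 0.18 to 2.93 FPKM in the other 3. The 8 B and plasma cell markers summed to 1720 and 2380 FPKM in the tumor controls and to 273 and 253 FPKM in the libraries labelled SRC-3KO. Treg markers summed to 968 and 861 FPKM in the tumor controls and to 1400 and 1510 FPKM in the libraries labelled SRC-3KO. The part of these differences in the results below was not tested. In such bulk samples, fewer cells of a type and less RNA per cell cannot be told apart.

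Within the family, levels ranged widely in both tables. Per kilobase of principal transcript, members among the highest over the 4 no-tumor libraries were Rpl32 (3680 CPM per kb), Rpl41 (3410), Rps14 (2930) and Rps9 (2660). By FPKM in tumor-bearing mice, members among the highest were Rpl32 (986 FPKM), Rps14 (911), Rps9 (675) and Rplp0 (657). The lowest in both tables were the same 3 paralogs, Rpl10l, Rpl3l and Rpl39l. Rpl24 (15.2 CPM per kb) and Rpl17 (22.4) came next with no tumor, and Rpl27a (17.6 FPKM) and Rpl17 (20.3) in tumor-bearing mice. Across 82 members the mean levels of the tables ranked alike (Spearman rho = 0.85, a description across genes, which are not replicates). Rpl13a, a large subunit protein also known as a translational silencer after interferon, ranked 78 of the members with no tumor and 22 in tumor-bearing mice, at 35.9 CPM per kb and 297 FPKM. Rps10 ranked 76 and 42, and Rpl22 ranked 31 and 68. The tables were made with different counting tools and hold different mice. The no-tumor levels were also divided by the shortest principal transcript, 474 bases for Rpl22, whose exons together cover 2911 bases. These cannot be told apart as sources of the rank differences.

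**Figure D1:**
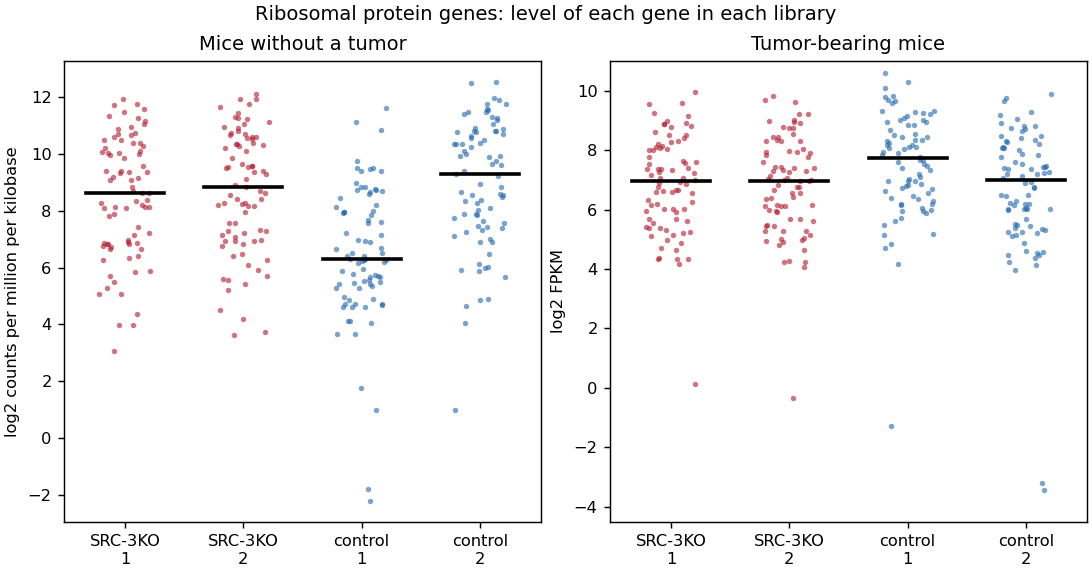
Level of each ribosomal protein gene in each library (points), as log2 CPM per kilobase of principal transcript (left) and log2 FPKM (right), with the median of the tested members as a black line. Values of 0 are left out, and 1 value of Rpl3l, 0.000173 FPKM in tumor control replicate 1, lies below the axis. Control replicate 1 sits lowest with no tumor and highest in tumor-bearing mice.

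With no tumor, ribosomal protein genes took up 5.61% and 6.43% of the protein-coding counts in the SRC-3KO libraries. In the controls they took up 1.8% in replicate 1 and 7.96% in replicate 2, with 95% Wilson intervals of 1.799 to 1.81% and 7.946 to 7.969% that cover counting error only. The control libraries thus lay on either side of both SRC-3KO libraries. The means were 6.02% ± 0.582 (SD, n = 2) and 4.88% ± 4.35 (SD, n = 2), a difference of 1.142 percentage points that did not exceed the spread between libraries (exact permutation test, two-sided, p = 1.0, with 0.333 the smallest this design allows). The median member had the same order of libraries, at 350 and 400 CPM in the SRC-3KO pair against 59.4 and 507 CPM in the controls.

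In tumor-bearing mice the share of protein-coding FPKM was 4.99% and 5.18% in the libraries labelled SRC-3KO and 6.88% and 4.49% in control replicates 1 and 2. Again the controls lay on either side of both SRC-3KO libraries, here with replicate 1 the higher one. The means were 5.09% ± 0.129 and 5.69% ± 1.69 (SD, n = 2 each), a difference of -0.599 points (exact permutation test, two-sided, p = 1.0). The median member stood at 126 and 126 FPKM in SRC-3KO and at 212 and 127 FPKM in the controls, so control replicate 2 was level with both.

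The ratio of large to small subunit genes was 1.12 and 1.09 in SRC-3KO against 1.38 and 1.17 in the controls with no tumor, where the wild-type-named control was highest. It was 1.05 and 1.01 in SRC-3KO and 0.954 and 1.04 in the controls in tumor-bearing mice, where the groups overlapped. Reads in the 319 pseudogenes named for ribosomal proteins followed the members, with 1.68% and 1.91% of all counts in SRC-3KO and 0.428% and 2.4% in the controls with no tumor. In tumor-bearing mice these pseudogenes held 3.54% and 3.67% of all FPKM in SRC-3KO and 4.79% and 3.14% in the controls. The sources used here do not say how reads that match both a gene and its copies were assigned, so levels of members with many copies are uncertain. The 21 members with no pseudogene named for them had shares of 2.14% and 2.37% against 0.586% and 2.84% with no tumor. In tumor-bearing mice their shares were 1.5% and 1.61% against 2.1% and 1.42%. The order of libraries was that of the whole family in both states. Copies under other names were not counted, so these members may have copies too.

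**Figure D2:**
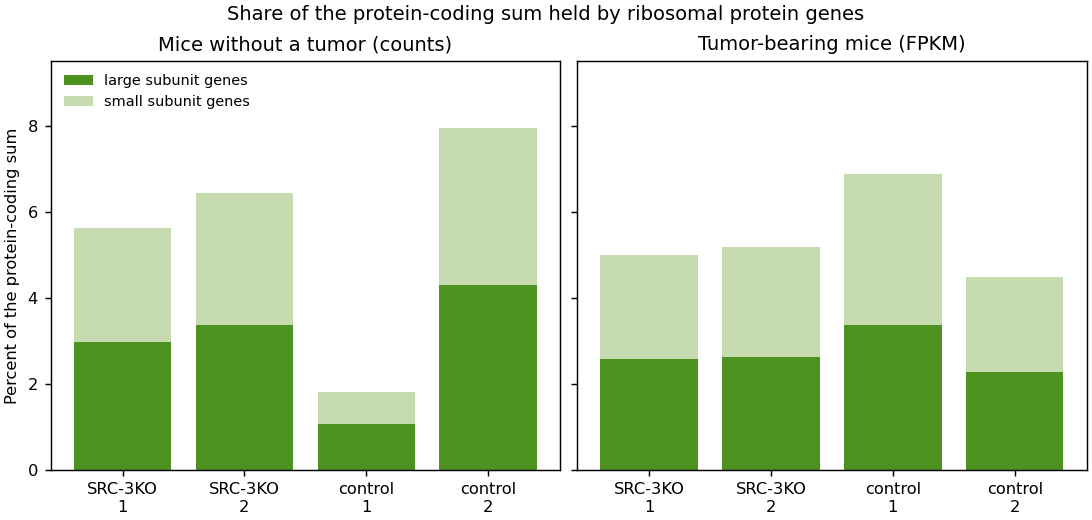
Percent of the protein-coding sum held by large subunit genes (dark) and small subunit genes (light) in each library, from counts (left) and FPKM (right), with 1 bar per library. The SRC-3KO bars lie between the control bars in both panels, 5.61% and 6.43% between 1.8% and 7.96%, and 4.99% and 5.18% between 4.49% and 6.88%.

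The SRC-3KO libraries had closer medians than the control libraries in both states. The SDs over all genes are given for scale and were not matched to the members for level. With no tumor, the members differed between the SRC-3KO replicates by a median log2 ratio of -0.18, with an SD over members of 0.16 against 0.99 over all genes. Control replicate 1 over replicate 2 gave a median of -2.69 and an SD of 1.65 (all genes 2.47), from -5.24 for Rpl26 to 2.66 for Rps10. In tumor-bearing mice the SRC-3KO replicates differed by a median of -0.01 (SD 0.27), and control replicate 1 over replicate 2 by 0.73 (SD 0.36, all genes 0.96).

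With no tumor, control replicate 1 was the lowest of the 4 libraries for 67 of 81 tested members (82.7%, against 39.5% of all genes tested), and control replicate 2 the highest for 68 (84.0%, against 25.5%). In tumor-bearing mice control replicate 1 was the highest library for 78 of 80 tested members (97.5%, against 39.1% of all genes). The lowest place there was divided among SRC-3KO replicate 1 (25 members), SRC-3KO replicate 2 (24) and control replicate 2 (31). The mitochondrial ribosomal proteins, which make up the separate ribosome of that organelle, had the same library on top for 73 of 78 genes in tumor-bearing mice.

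**Figure D3:**
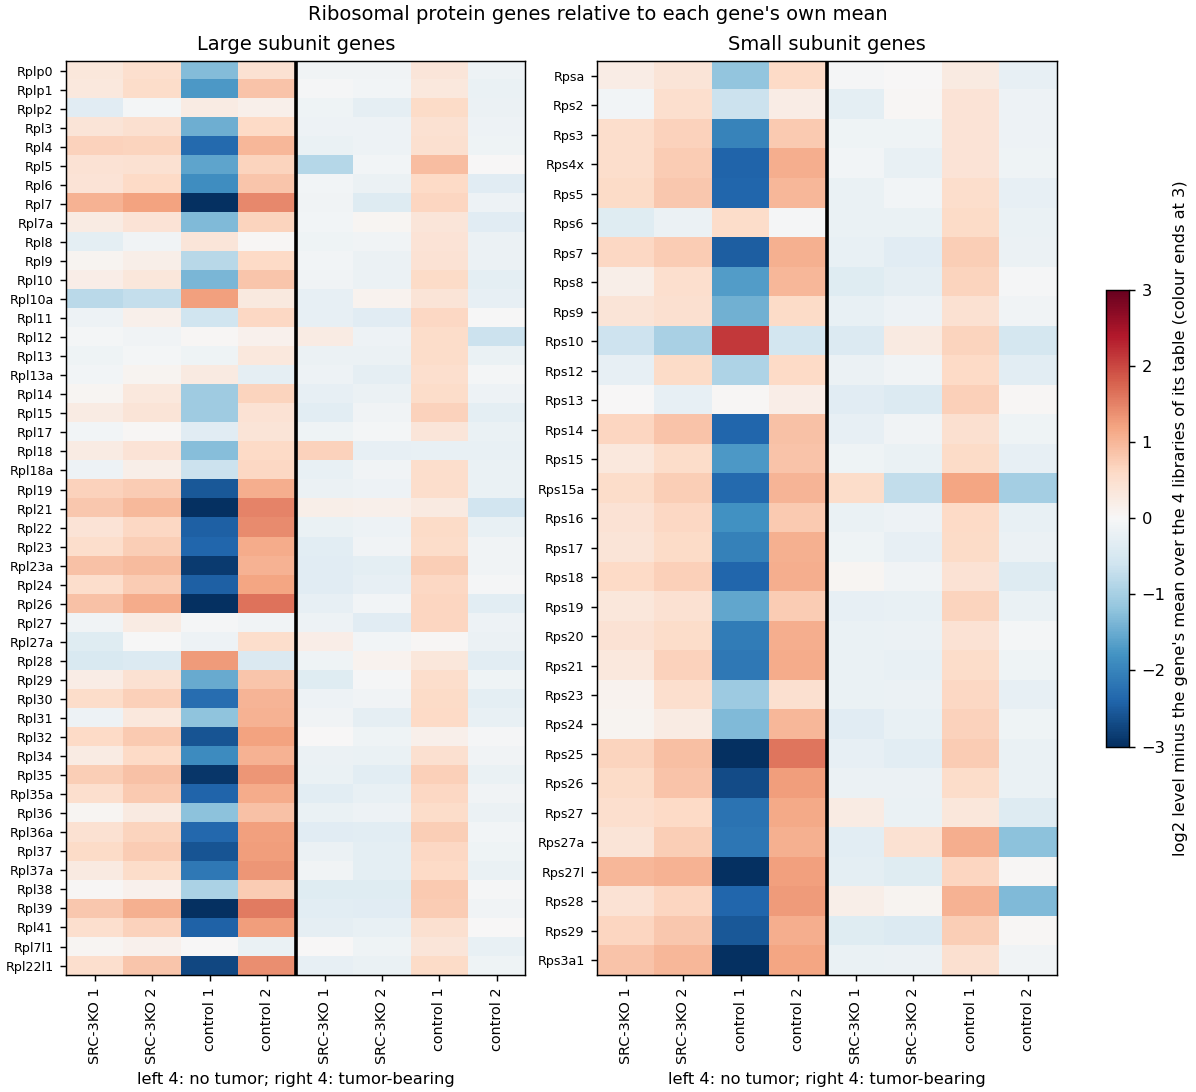
Each row is a ribosomal protein gene tested in both states (1 is not shown), and each column a library. Colour is the log2 level minus the gene's mean over the 4 libraries of its table, ending at 3 in either direction. Control replicate 1 forms the blue column with no tumor, where Rps10, Rpl28 and Rpl10a are red, and the red column in tumor-bearing mice.

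Comparing genotypes with no tumor asked whether SRC-3KO Tregs express ribosomal protein genes at another level. Of 83 members, 81 passed the filter on low counts, and Rpl3l and Rpl10l did not. None was called by edgeR's quasi-likelihood test (Benjamini-Hochberg adjusted p under 0.05), where 0.0% of all 14860 genes were called, and 0 members had an unadjusted p under 0.05, as did 472 of all genes. The DESeq2 fit called 0 members and 86 genes. The median log2 fold change of the members (SRC-3KO over control) was 0.50, against -0.02 over all genes, with 12 of 81 below 0. That direction rested on control replicate 1. Without it the median was -0.34, with 0 members called (0.00628% of all genes), and without control replicate 2 it was 2.37, with 65 members called, 61 higher and 4 lower (43.8% of all genes). The groups did not overlap for 7 members lower in SRC-3KO (8.64%, against 21.0% of all genes) and 2 higher (2.47%, against 18.3%), both shares below the background.

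Rpl39l, a paralog of Rpl39 known mainly from testis, was the member with the smallest p with no tumor. It measured 4.59 and 7.30 CPM in the SRC-3KO pair (126 and 227 counts) against 0.119 and 1.08 CPM in the controls (3 and 26 counts). Both SRC-3KO libraries were above both controls, at levels close to the bottom of the family. Its log2 fold change was 3.49 (SE 1.5), with an adjusted p of 0.910 by edgeR's quasi-likelihood test, and the fitted value of so low a gene depends on the prior count. Without control replicate 1 it was 2.54 (adjusted p = 0.173), and without control replicate 2 it was 5.63 (adjusted p = 0.0116). In tumor-bearing mice Rpl39l stood at 1.09 and 0.794 FPKM in SRC-3KO and at 0.407 and 0.108 FPKM in the controls, the same order at a level that did not pass the filter, so no test was made.

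Rps10, a small subunit protein (chr17:27630418-27636669, minus strand), measured 7.76 and 6.08 CPM in the SRC-3KO pair against 51.5 and 8.15 CPM in the controls. Its distance came from control replicate 1, since control replicate 2 was just above SRC-3KO replicate 1. The log2 fold change was -2.04 (SE 1.10, adjusted p = 0.910 by edgeR), and -0.17 without control replicate 1. Rpl10a, a large subunit protein of the L1 stalk (chr17:28328471-28331033, plus strand), measured 77.6 and 83.3 CPM in the SRC-3KO pair against 321 and 167 CPM in the controls. Here both controls were well above both SRC-3KO libraries, with a log2 fold change of -1.5 (SE 0.84, adjusted p = 0.910 by edgeR) and of -0.98 without control replicate 1 (adjusted p = 0.135). For both genes the edgeR fit without control replicate 2 made a call, at log2 fold changes of -2.86 and -1.96.

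Rps6, the small subunit protein phosphorylated downstream of mTOR, measured 95.8 and 108 CPM in the SRC-3KO pair against 180 and 120 CPM in the controls. Rpl8 measured 1220 and 1400 CPM in the SRC-3KO pair against 1920 and 1530 CPM in the controls. Rpl7l1, a paralog of Rpl7, measured 515 and 543 CPM in the SRC-3KO pair against 502 and 435 CPM in the controls. The groups of these 3 genes did not overlap but came within a small part of their level of each other, and their log2 fold changes of -0.45, -0.28 and 0.29 had adjusted p of 0.917, 0.942 and 0.936 by edgeR. The values of Rps6 and Rpl8 turned to 0.46 and 0.52 when a trend in length and GC content was removed.

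Tumor-bearing mice were compared in the same way. Of 83 members, 80 passed the filter (not Rpl3l, Rpl10l or Rpl39l). None was called by limma on log2(FPKM + 1) with Benjamini-Hochberg adjustment, where 0.109% of 12859 genes were called. In that fit 2 of the 80 members had an unadjusted p under 0.05, as did 2119 of the 12859 genes. The median log2 fold change was -0.36, against -0.02 over all genes, and 73 of 80 members were below 0. Fold changes on this scale understate the change of low genes. The groups did not overlap for 32 members lower in SRC-3KO (40.0%, against 24.9% of all genes) and for 0 higher (against 27.5%). The low side depended on control replicate 1, the library with the highest ribosomal share. Without it the median was 0.00 and 2 members were called, Rpl21 and Rps28, both higher in SRC-3KO (3.68% of all genes). Without control replicate 2, which held the myeloid markers, the median was -0.73 and 58 members were called, all lower (20.1% of all genes).

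Scaling also moved the family. The median was -0.11 with each library scaled to the same sum (all genes 0.21). With the same scaling it was -0.15 over protein-coding genes alone (all genes 0.24). It was -0.13 with that scaling and without antigen receptor and haemoglobin genes (all genes 0.20). Without that scaling but with a length and GC trend removed it was -0.19 (all genes -0.02). The member median minus that of all genes lay between -0.39 and -0.17 under these settings, and 60 to 63 members were below 0. Within the family, transcript length did not order the members. Medians were -0.37 below 500 bases (18 members), -0.34 from 500 to 800 (30 members) and -0.36 above (32 members). These values compare members with each other and not the family with all genes.

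**Figure D4:**
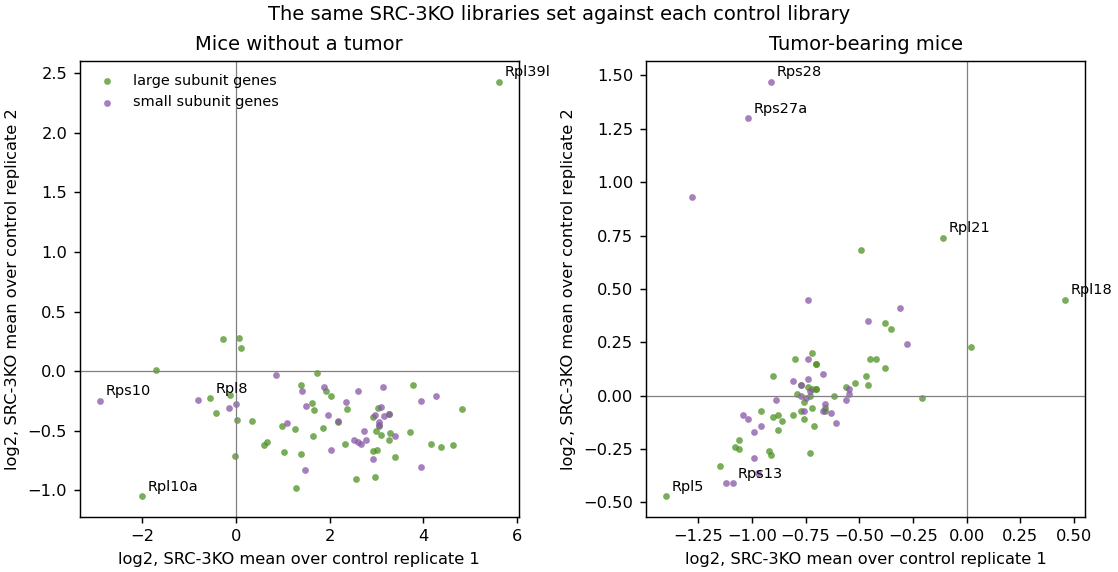
Each point is a tested ribosomal protein gene. The x axis is log2 of the SRC-3KO mean over control replicate 1 and the y axis the same over control replicate 2, for no tumor (left) and tumor-bearing mice (right). The axes share the SRC-3KO libraries. With no tumor most points lie right of 0 on the x axis and below 0 on the y axis, and in tumor-bearing mice most lie left of 0 on the x axis and around 0 on the y axis.

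The small subunit protein Rps13 (chr7:116331505-116334195, minus strand) had the smallest p in tumor-bearing mice. Its log2 fold change was -0.74 (SE 0.27), with an adjusted p of 0.276 by limma, on 34.0 ± 1.19 FPKM in SRC-3KO and 58.8 ± 19.2 FPKM in the controls (SD, n = 2 each). Rps29, a zinc-binding small subunit protein (chr12:69157722-69159186, minus strand), stood at 133 and 129 FPKM in SRC-3KO and 286 and 175 FPKM in the controls. Both controls were above both SRC-3KO libraries, which differed little, and the log2 fold change was -0.76 (SE 0.29, adjusted p = 0.287 by limma). Rpl38, a large subunit protein known from mice with patterning defects of the skeleton (chr11:114668524-114672331, plus strand), stood at 51.6 and 51.3 FPKM in SRC-3KO and 114 and 64.8 FPKM in the controls. The SRC-3KO pair was again tight and the controls apart, with a log2 fold change of -0.73 (SE 0.30, adjusted p = 0.315 by limma).

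Rpl5 and Rpl11, which with 5S ribosomal RNA bind Mdm2 and restrain it when ribosome assembly fails, were both on the list of non-overlapping members. Rpl5 (chr5:107900502-107909005, plus strand) stood at 20.8 and 35.5 FPKM in SRC-3KO and 71.9 and 37.6 FPKM in the controls. SRC-3KO replicate 2 and control replicate 2 were close, and the log2 fold change was -0.91 (SE 0.40, adjusted p = 0.332 by limma), the lowest of all tested members. Rpl11 (chr4:136028265-136053428, minus strand) averaged 19.4 ± 0.823 FPKM in the SRC-3KO pair and 30.0 ± 9.13 FPKM in the controls (SD, n = 2 each), with no overlap and a log2 fold change of -0.58 (SE 0.26, adjusted p = 0.336 by limma). With no tumor, Rpl5 measured 106 and 107 CPM in the SRC-3KO pair against 26.2 and 124 CPM in the controls, and Rpl11 84.5 and 104 against 61.8 and 144 CPM, so that both groups overlapped. Of 5 genes listed for nucleolar stress, 4 were tested in each state and 0 were called; Cdkn1a and Mdm4 had log2 fold changes of -1.65 and 1.11 in tumor-bearing mice (adjusted p = 0.202 and 0.286 by limma).

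Rps27l, a paralog of Rps27 that p53 induces (chr9:66946086-66949516, plus strand), stood at 260 and 246 FPKM in SRC-3KO and 494 and 325 FPKM in the controls of tumor-bearing mice. Its log2 fold change was -0.66 (SE 0.28, adjusted p = 0.325 by limma). Its parent Rps27 stood at 97.6 and 71.2 FPKM in SRC-3KO and 103 and 62.8 FPKM in the controls, so the groups overlapped. Per length, Rps27l was 2.66 and 3.46 times Rps27 in SRC-3KO and 4.78 and 5.18 times in the controls, ratios that did not overlap. With no tumor that ratio was 14.2 and 13.7 in SRC-3KO and 4.93 and 10.8 in the controls, the opposite order.

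These 6 members of the tumor comparison depended on the control kept. Without control replicate 1 the log2 fold changes were -0.40 for Rps13, -0.41 for Rps29, -0.33 for Rpl38, -0.45 for Rpl5, -0.27 for Rpl11 and -0.36 for Rps27l, with adjusted p of 0.112 to 0.455 by limma. Without control replicate 2 they were -1.07, -1.11, -1.13, -1.37, -0.88 and -0.96 in the same order. All were called there by limma (adjusted p of 0.0284 to 0.0297) except Rpl5 (0.0554).

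**Figure D5:**
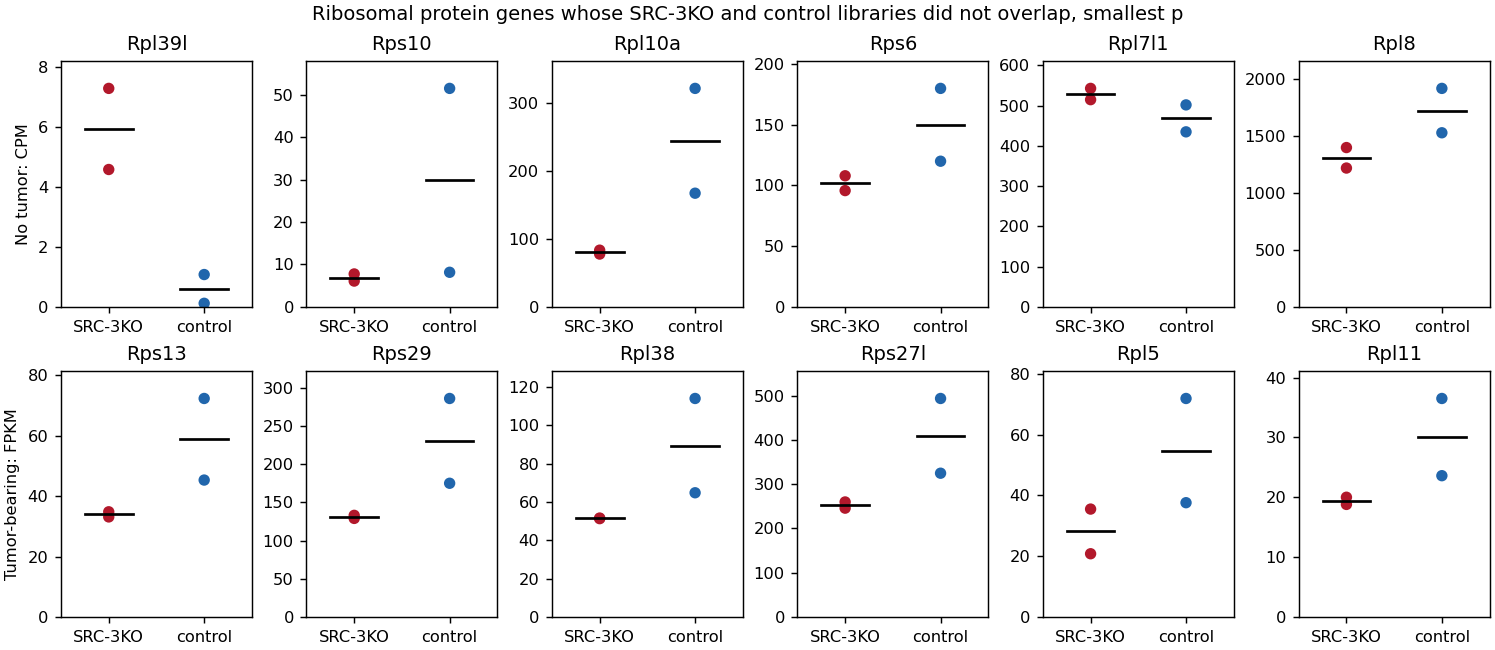
The 6 members with the smallest p among those whose SRC-3KO (red) and control (blue) libraries did not overlap, with no tumor in CPM (top) and in tumor-bearing mice in FPKM (bottom). Points are libraries, black lines are group means and each axis starts at 0. No member shown had an adjusted p under 0.05.

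The P stalk proteins, which recruit elongation factors, had overlapping groups in tumor-bearing mice: Rplp0 stood at 606 and 602 FPKM in SRC-3KO and 834 and 585 FPKM in the controls. Rplp1 stood at 448 and 430 FPKM against 571 and 402 FPKM, and Rplp2 at 143 and 130 against 231 and 139 FPKM. In each the highest library was control replicate 1 and the other 3 lay close together. With no tumor Rplp0 measured 3110 and 3470 CPM in the SRC-3KO pair against 995 and 3340 CPM in the controls, Rplp1 724 and 853 against 175 and 1060 CPM, and Rplp2 525 and 636 against 779 and 736 CPM. Rplp2 thus differed from its partner Rplp1 in keeping its level in the wild-type-named control.

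Rps19, the small subunit protein most often mutated in Diamond-Blackfan anaemia, stood at 476 and 483 FPKM in SRC-3KO and 887 and 485 FPKM in the controls of tumor-bearing mice, and at 1630 and 1770 CPM against 434 and 2190 CPM with no tumor. Rpsa, also known as the laminin receptor, stood at 257 and 263 against 315 and 220 FPKM, and at 1070 and 1200 against 405 and 1400 CPM. Rpl13a stood at 261 and 240 against 409 and 277 FPKM, and at 35.0 and 39.3 against 45.2 and 30.8 CPM. Rps6 was at 153 FPKM in 3 of the tumor libraries and at 261 FPKM in control replicate 1. These 4 genes had adjusted p of 0.469 to 0.977 by limma and of 0.917 to 0.978 by edgeR.

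Of the remaining paralogs, Rpl22l1, a paralog that can take the place of Rpl22 in the ribosome, was 1.61 and 1.6 times Rpl22 per length in SRC-3KO and 1.68 and 1.76 times in the controls of tumor-bearing mice. With no tumor the ratio was 0.176 and 0.194 against 0.136 and 0.164. The tables thus placed the pair in opposite orders in all 4 libraries of each. Rpl7l1 was 0.278 and 0.304 times Rpl7 in SRC-3KO and 0.211 and 0.244 times in the controls of tumor-bearing mice. With no tumor the ratio was 0.289 and 0.269 against 7.46 and 0.184, and in the control at 7.46 it was Rpl7 that was low, at 59.8 CPM against 1580 to 2100 CPM in the other libraries. Rpl10l, a retrocopy of Rpl10 used in the testis, had 0 counts in the 4 no-tumor libraries, which allows up to 0.0965 to 0.124 CPM, and was listed at 0 FPKM in the tumor libraries. Rpl3l, the muscle paralog of Rpl3, had 10 counts in control replicate 1 and 0 in the other 3 no-tumor libraries, and at most 0.0918 FPKM in the tumor libraries. No gene named Rps4l was found among the members.

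To ask which members departed from the rest of the family, every library was scaled so that its median member was equal, and limma was fitted to all genes again. With no tumor 0 members were called (0.0% of all genes), and the groups did not overlap for 16 of 81 lower (19.8%, against 17.8% of all genes) and 13 higher (16.0%, against 11.3%). In tumor-bearing mice 0 were called (0.0154% of all genes), and the groups did not overlap for 19 of 80 lower (23.8%, against 7.97%) and 23 higher (28.7%, against 43.7%). Since the scaling centres the family, these counts describe order within it.

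In tumor-bearing mice, Rpl21 had the smallest p of the members in the family-scaled fit. Relative to the median member (log2) it stood at -0.20 and -0.23 in SRC-3KO and -0.85 and -0.97 in the controls, a family-scaled log2 fold change of 0.69 (SE 0.18, adjusted p = 0.263 by limma). Its unscaled levels of 109 and 108 against 117 and 64.9 FPKM overlapped. Rpl18 had the largest value, 0.83 (SE 0.40, adjusted p = 0.405 by limma), which came from SRC-3KO replicate 1, at 167 FPKM against 86.6 to 88.3 FPKM in the other 3 libraries. After Rpl18 and Rpl21 came Rps28 (0.65) and Rps27a (0.51), and both were low in control replicate 2, Rps28 at 35.4 FPKM against 94.3 to 184 and Rps27a at 22.1 FPKM against 41.8 to 110. On the low side were Rpl5 (-0.54), Rps29 (-0.38), Rps13 (-0.36) and Rpl38 (-0.35), with adjusted p of 0.360 to 0.462 by limma.

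With no tumor, the members furthest below the family were Rps10 (-2.68), Rpl10a (-2.63), Rpl28 (-1.96) and Rps6 (-1.64), and those furthest above were Rpl39l (2.53), Rpl7 (1.14), Rps27l (0.92) and Rpl26 (0.89). All had an adjusted p of 0.928 by limma. Rpl10a was 2.17 and 2.26 below the median member in SRC-3KO (log2 of -2.17 and -2.26), 2.43 above it in control replicate 1 and -1.6 from it in control replicate 2. For the other genes on the low side the SRC-3KO libraries and control replicate 2 were alike and control replicate 1 stood apart, as for Rps6 at -1.87 and -1.89 against 1.6 and -2.08. The same held on the high side for Rpl7, at 2.18 and 2.16 in SRC-3KO against 0.01 and 2.05 in control replicates 1 and 2, for Rpl26 (1.37 and 1.40 against -0.58 and 1.57) and for Rps27l (1.22 and 1.07 against -0.47 and 0.91). With all 4 libraries the median family-scaled log2 fold change of the members was -0.23 (all genes -1.03). Without control replicate 1 that median was 0.02 (all genes 0.42).

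Genes that act with the ribosome, from lists chosen with earlier results known, were described by the same fits, and 0 members of any of these lists were called in either state. The 4 cytosolic ribosomal protein genes outside the naming rule (among them Fau and Rack1) had medians of 0.32 with no tumor and -0.45 in tumor-bearing mice, which were -0.16 and 0.00 without control replicate 1. Fau, which encodes a small subunit protein, stood at 41.3 and 46.5 FPKM in SRC-3KO and 77.6 and 57.3 FPKM in the controls of tumor-bearing mice (log2 fold change -0.60, SE 0.22, adjusted p = 0.285 by limma).

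The mitochondrial ribosomal proteins had medians of 0.64 (77 tested) and -0.37 (78 tested), with 37 of 78 not overlapping and lower in SRC-3KO in tumor-bearing mice (47.4%, against 24.9% of all genes) and 2 higher (2.56%, against 27.5%). Without control replicate 1 of each table these medians were 0.01 and -0.05. The ribosomal protein pseudogenes had medians of 0.51 and -0.31, which were -0.39 and 0.00 without control replicate 1.

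Factors that use or build the ribosome did not have one direction in tumor-bearing mice. The 29 initiation factors had a median of -0.22 (0.00 without control replicate 1) and 19 below 0. Eif4g1, the scaffold of the cap complex, stood at 32.1 and 33.9 FPKM in SRC-3KO and 15.7 and 18.3 FPKM in the controls (log2 fold change 0.92, SE 0.19, adjusted p = 0.156 by limma). Eif4a2, an RNA helicase, stood at 20.3 and 26.1 FPKM in SRC-3KO and 11.6 and 11.6 FPKM in the controls (log2 fold change 0.93, SE 0.21, adjusted p = 0.167 by limma). Eif2s2, a subunit of the factor that brings the initiator tRNA, stood at 8.61 and 24.2 FPKM in SRC-3KO and 49.4 and 33.7 FPKM in the controls (log2 fold change -1.43, SE 0.49, adjusted p = 0.263 by limma). The 7 elongation factors had a median of -0.24, and of 0.06 without control replicate 1.

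The 33 ribosome biogenesis genes had a median of -0.09 (0.17 without control replicate 1), with 5 lower (15.2%, against 24.9% of all genes) and 7 higher (21.2%, against 27.5%) without overlap. Utp20, part of the small subunit processome, stood at 9.91 and 9.32 FPKM in SRC-3KO and 2.53 and 3.45 FPKM in the controls (log2 fold change 1.42, SE 0.24, adjusted p = 0.132 by limma). Among 17 genes of growth signalling to ribosomes the median was 0.06. Eif4ebp1, the cap-complex inhibitor that mTOR phosphorylates, had a log2 fold change of -0.98 (SE 0.21, adjusted p = 0.160 by limma) and Mtor one of 0.78 (SE 0.29, adjusted p = 0.287 by limma). With no tumor the same 17 genes had a median of -1.19, which was 0.28 without control replicate 1.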

How the data were processed

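The authors deposited raw read counts per gene for the 4 libraries from mice with no tumor and StringTie FPKM per gene for the 4 tumor libraries, per the file headers. FastQC, Trim Galore, STAR, featureCounts, edgeR and the mm10 build are named in the submitters' processing notes, with no versions. The sources used here do not state the strand setting, the treatment of reads with several matches or the annotation release. Gene models came from GENCODE vM21, to which 83 of 83 members matched by ID.

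Counts were fitted with edgeR 4.0.16 (R 4.3.3; filterByExpr, TMM factors 0.916 to 1.09, common dispersion 0.791, quasi-likelihood test). The SE given with an edgeR fold change was worked back from that test, as the absolute log2 fold change over the square root of its F statistic. It thus adds nothing to the p-value and is not the same measure as the SE from limma. FPKM were fitted with limma 3.58.1 with an intensity trend on log2(FPKM + 1), where a gene was kept if 2 or more libraries reached 1 FPKM. Fits ran over all genes, with Benjamini-Hochberg adjustment and a threshold of 0.05. The family-scaled fits used limma on log2 CPM (prior count 2) or log2(FPKM + 1). Scripts were tested on simulated data.

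The members, lists and settings were chosen with earlier results of these data known. Named genes were, by rule, any called member, up to 6 non-overlapping members with the smallest p per state, the 5 highest and 5 lowest per length, the paralogs with their parents, the P stalk, 7 members with a known role of their own, up to 4 furthest from the family each way, and up to 4 of each other list. A few of these are not reported here. The alternatives tried were limma-voom, DESeq2 1.42.0, changed scalings, filters and pseudocounts, a replicate block and leaving out each library.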

Additional observations from a re-analysis of the deposited data

How the results depend on the processing

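Leaving out either SRC-3KO library left the counts of called members at 0, as did leaving out control replicate 1 with no tumor. The other fits that left out a control called members. Over the leave-one-out fits, members called ranged from 0 to 65 with no tumor and from 0 to 58 in tumor-bearing mice. Median log2 fold changes ranged from -0.34 to 2.37 and from -0.73 to 0.00, and differences in share from -1.93 to 4.22 points and from -1.80 to 0.60 points. Members called apart from the family ranged from 0 to 51 with no tumor and from 0 to 6 in tumor-bearing mice, and called genes of the other ribosome lists from 0 to 214. The ends of the medians and shares, and the upper ends of the counts, came from fits without a control. There the lone control is assumed to vary like the other group. In the family-scaled fits without control replicate 2, members were called no more often than all genes tested, in either state. Those calls thus do not set members apart from other genes. Calls in the other ribosome lists were not set beside the share of all genes, so they are not a result about those lists. The 0 ends of the counts came from fits without an SRC-3KO library and, for members called with no tumor, also without control replicate 1. With a length and GC trend removed, Rps6 and Rpl8 with no tumor turned from -0.45 and -0.28 to 0.46 and 0.52. Limma-voom gave a median of 1.0 with no tumor, against 0.50 by edgeR.

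The replicate numbers of the tumor libraries are not said to mark a shared animal or day, and deviations of same-numbered libraries had a correlation of 0.036 over all genes. With a replicate block, 0 members were called, the median stayed at -0.36, and 72 genes were called over the whole table against 14. In the family-scaled fit the block called 0 members and 677 genes against 2. The no-tumor labels share no replicate numbers. Restricting the family to the 21 members with no named pseudogene, chosen after seeing the data, left the share differences at 0.544 and -0.206 points. With 2 libraries per group, 1 of the controls apart in each table and no counts for the tumor libraries, differences smaller than the spread of the controls were not detectable.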
